A study of Mus musculus with 6 samples.

Results

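Astrocytes, glia that nourish neurons, are known by a set of membrane channels, transporters and enzymes. Described here are 10 such genes (Gja1, Gjb6, Aqp4, Slc1a2, Slc1a3, Slc4a4, Glul, Aldh1l1, S100b and Agt) out of 42365 genes in a deposited table of raw RNA-seq counts. They were taken by symbol, and all 10 were found. The cells were mouse neural progenitor cells (NPC), cultured cells from which neurons and glia can be grown. There were 6 libraries in 3 groups of 2: wild-type parental cells, whose titles call them clones 1 and 2, and 2 clones labelled knockout, clone 1 and clone 2. The genotype rests on the labels, and the clones are called labelled knockout. No drug, time or dose is given in the labels, and all groups are the same line. Each knockout group is a single clone with 2 libraries. The labels do not say if those libraries were grown apart, or which of the 2 library kits they name was used for each. The p-values therefore measure the spread between these clones or libraries, which for libraries may be technical.

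The encoded proteins divide the housekeeping of astrocytes among them. Connexins join neighbouring astrocytes through gap junctions, and aquaporin 4 passes water at the cell's endfeet on blood vessels. Glutamate released by neurons is taken up by sodium-driven carriers of the Slc1 family and turned into glutamine by glutamine synthetase, while a bicarbonate carrier buffers pH. Several of the genes are also expressed in radial glia and neural progenitors, so none of them alone tells an astrocyte from a progenitor.

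The libraries held 58871554 to 69530032 counts. Values below are CPM, read counts scaled to a common library size with factors from TMM (edgeR's trimmed mean of M-values), unless a sentence says otherwise. All 8 progenitor markers examined were above 1 CPM in each group, with summed levels of 2976 to 2988 CPM in parental libraries, 2522 to 2535 in clone 1 and 3102 to 3111 in clone 2. Vim was the largest part of that sum (means of 1978, 1235 and 1802 CPM), and single markers moved both ways. Fabp7 (165, 601 and 606), Nes (79.6, 170 and 186) and Hes5 were higher in both clones. Vim, Sox2, Msi1 (262, 106 and 104) and Sox1 (60.5, 3.35 and 3.17) were lower in both. Pax6 was higher in clone 1 and lower in clone 2. The 8 astrocyte markers examined, none of them among the 10 genes, summed to 7526 to 7653 CPM in parental libraries, 1770 to 1953 in clone 1 and 2389 to 2486 in clone 2. In each group 7 of the 8 were above 1 CPM, all but Slc7a10. Gfap (means of 2691, 1.59 and 9.70 CPM in parental, clone 1 and clone 2) and Apoe (2821, 287 and 240) carried most of that fall. The others moved both ways. Mlc1 (527, 301 and 364) and Hepacam (650, 335 and 373) were lower, and Acsbg1 (84.6, 343 and 416) and Fgfr3 (133, 167 and 148) higher. Aldoc (683, 428 and 887) was lower in clone 1 and higher in clone 2. The 5 ependymal markers summed to 38.0 to 39.9, 7.46 to 7.53 and 7.92 to 8.32 CPM, nearly all of it Foxj1 (means of 38.5, 6.98 and 7.71). The rest were below 1 CPM in each group. Among them Dynlrb2 was higher in both clones (0.124, 0.506 and 0.341), and Ccdc153 and Rsph1 were lower. Tmem212 was at 0 in both clones, but at a mean of only 0.0248 CPM in parental cells. Summed proliferation markers were at no more than 13.3 CPM in parental libraries against 994 to 1022 and 629 to 630, and oligodendrocyte lineage markers at 1288 to 1291 against 5242 to 5345 and 6186 to 6451. Neuron markers summed to 1067 to 1075, 1351 to 1506 and 1041 to 1064 CPM, most of it Map2 (means of 975, 1403 and 1035). Syt1 (2.73, 8.71 and 3.31) was also higher in both clones by value. The other neuron markers were lower in both: Dcx (66.8, 10.4 and 8.43), Tubb3 (13.1, 3.22 and 2.64), Elavl3 (10.5, 2.19 and 2.47), Rbfox3, Snap25 and Stmn2. Microglial markers summed to at most 2.1 CPM in any library, endothelial to at most 4.44, and mesenchymal to at most 4.7. Their part in the results below was not tested. In bulk RNA, fewer cells of a type and less RNA per cell cannot be told apart.

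The sequences before the start sites of 4 of these genes are shown because 3 of them (Gja1, Gjb6 and Agt) fell in both clones and the other (S100b) rose. Each is the 250 bases before the RefSeq start in GRCm38.p6, read 5′ to 3′ on the gene's strand. Capitals mark matches to TTGGC, a core of sites for nuclear factor I (NFI), and to TTCNNNGAA, the core read by STAT factors, on both strands.
Gja1, chr10:56377050-56377299, plus strand: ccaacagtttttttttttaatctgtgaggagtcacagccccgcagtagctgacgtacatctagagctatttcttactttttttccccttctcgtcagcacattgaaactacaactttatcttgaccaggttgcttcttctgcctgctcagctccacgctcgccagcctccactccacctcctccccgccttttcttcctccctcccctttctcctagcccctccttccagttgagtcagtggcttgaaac
Gjb6, chr14:57133612-57133861, minus strand: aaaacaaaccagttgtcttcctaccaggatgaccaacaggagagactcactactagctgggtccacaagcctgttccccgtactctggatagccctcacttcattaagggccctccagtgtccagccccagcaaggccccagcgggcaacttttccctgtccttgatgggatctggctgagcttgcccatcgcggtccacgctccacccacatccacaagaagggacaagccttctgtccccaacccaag
Agt, chr8:124569707-124569956, minus strand: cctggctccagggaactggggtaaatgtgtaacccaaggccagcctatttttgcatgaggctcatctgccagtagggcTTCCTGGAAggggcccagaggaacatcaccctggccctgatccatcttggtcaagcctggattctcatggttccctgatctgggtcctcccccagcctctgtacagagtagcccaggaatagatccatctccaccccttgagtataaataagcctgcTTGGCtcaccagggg
S100b, chr10:76253586-76253835, plus strand: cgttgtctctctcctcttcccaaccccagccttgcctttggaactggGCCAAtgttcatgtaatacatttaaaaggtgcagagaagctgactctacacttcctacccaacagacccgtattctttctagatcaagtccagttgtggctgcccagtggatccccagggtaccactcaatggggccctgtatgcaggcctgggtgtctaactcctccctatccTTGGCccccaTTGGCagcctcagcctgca

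In windows of 300 bases (250 before to 50 after the start), TTGGC was found for 5 of the 9 members with a RefSeq promoter (Agt, Glul, S100b, Slc1a2 and Slc4a4), against 46.9% of all 32544 promoters. The windows of Slc1a2 (from chr2:102706188) and Aldh1l1 (from chr6:90550543) belong to starts well inside the gene spans given below. So does the window of Slc4a4 from chr5:89027716. TTCNNNGAA was found for 2 of the 9, Agt and Slc1a3, against 8.33% of promoters. The full NFI palindrome, which holds TTGGC on both strands, was found for 0 of the 9 and in 12 of all promoters. The E-box CANNTG, whose matches may overlap the others, was found for 9 of 9 members against 72.3% of promoters. Members were counted by gene and the background by promoter. Slc4a4 had 2 windows, and the one from chr5:88887010 held no E-box. The windows of Gja1 and Gjb6 held neither TTGGC nor TTCNNNGAA, and that of S100b held 4 matches to TTGGC, 1 of them after the start and so not shown.

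In all, 7 of the 10 genes passed an adjusted p of 0.05 (Benjamini-Hochberg over all 24506 genes tested, edgeR quasi-likelihood test) when the 2 labelled knockout clones were compared with the 2 parental libraries. The 6 that fell were Gja1, Aqp4, Gjb6, Agt, Slc4a4 and Slc1a3, and S100b rose. Slc1a2, Glul and Aldh1l1 did not pass. Of all genes tested, 26.7% passed, 13.6% lower and 13% higher. All 10 members passed the filter on low counts, and their median log2 fold change was -1.28, against 0.03 over all genes tested. In the levels, 7 of the 10 had all 4 labelled knockout libraries below both parental ones and 3 had them all above; over all genes these shares were 29.6% and 27%.

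**Figure D1:**
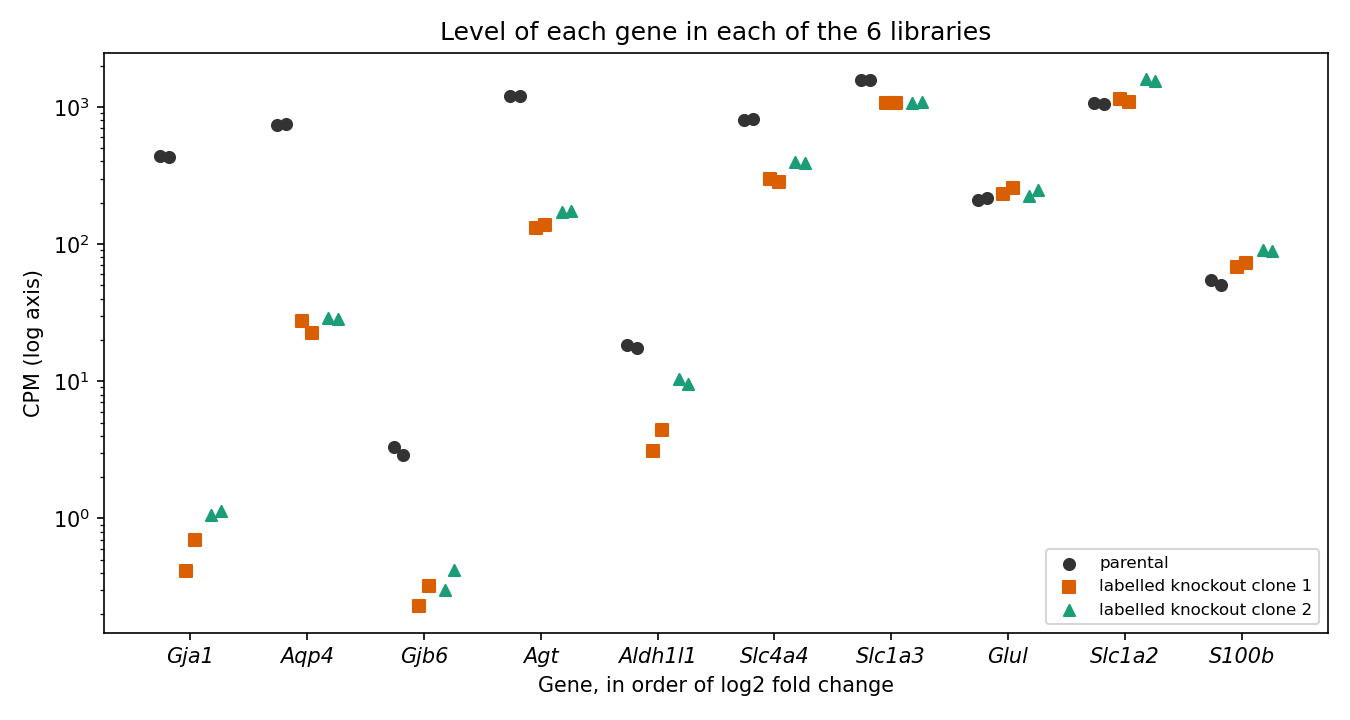
CPM on a log axis for each of the 10 genes, in order of log2 fold change, with 1 symbol per library (2 parental, 2 of clone 1, 2 of clone 2). Gja1 drops from above 428 to 1.14 CPM or less, while Slc1a2, Slc1a3, Glul and S100b stay within the same decade in all 6 libraries.

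Gja1 encodes connexin 43, the main gap junction protein of astrocytes (chr10:56377330-56402513, plus strand, GRCm38, protein coding). Parental cells had 435 and 428 CPM, clone 1 had 0.412 and 0.699, and clone 2 had 1.06 and 1.14. In the fit of single libraries 0.13% of the parental level was left in clone 1 and 0.254% in clone 2, and the groups did not overlap. The counts behind these values were 27910 and 25242 in parental cells, then 27 (95% Poisson interval 17.8 to 39.3), 48 (35.4 to 63.6), 70 and 70 (each 54.6 to 88.4), intervals that cover counting error only. The log2 fold change was -9.00 (SE 0.37, adjusted p = 0.000299), and only 7 of the 24506 genes had a lower one. Clone 2 kept more of the transcript than clone 1, with a log2 difference of 0.97 (SE 0.18, adjusted p = 0.000492), although both were near 0.

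Gjb6 encodes connexin 30, the other connexin typical of astrocytes (chr14:57123303-57133611, minus strand, protein coding). Parental libraries had 3.3 and 2.9 CPM, clone 1 had 0.229 and 0.321, and clone 2 had 0.302 and 0.422. All labelled knockout libraries lay below both parental ones, on counts of 15 to 26 against 212 and 171. This was a 9.52-fold fall (log2 fold change -3.25, SE 0.25, adjusted p = 0.00102). The clones differed by 0.38 on that scale (SE 0.34, adjusted p = 0.415), which did not pass. Per kb of exon, Gja1 exceeded Gjb6 by 34.3 and 38.5 times within the parental libraries. That ratio, which needs no scaling between libraries, was 0.469 and 0.569 in clone 1 and 0.912 and 0.702 in clone 2. By value, the order of these genes per length was thus turned around in all 4. This rests on dividing by merged exon lengths of 10257 bases for Gja1 and 2674 for Gjb6. In raw counts Gja1 stayed above Gjb6, at 1.8 and 2.18 times in clone 1 and 3.5 and 2.69 times in clone 2. Which transcripts were expressed was not tested. The counts behind these ratios were few. In library 1 of clone 2 they were 20 for Gjb6 (95% Poisson interval 12.2 to 30.9) and 70 for Gja1 (54.6 to 88.4). Whether the order was turned around beyond counting error was not tested.

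Aqp4, the water channel, lies at chr18:15389496-15410982 on the minus strand (protein coding). Its level was 739 and 745 CPM in parental cells, 27.7 and 22.6 in clone 1, and 29.1 and 28.3 in clone 2. The groups of parental and labelled knockout libraries were far apart, with 3.71% of the parental level left: the log2 fold change was -4.75 (SE 0.12, adjusted p = 0.00013). Clone 2 differed from clone 1 by 0.19 (SE 0.08, adjusted p = 0.0698), which did not pass. It did pass without library 1 of clone 1, at 0.36 (adjusted p = 6.71e-07), with no filter (9.25e-05), among genes of at least 5 CPM (0.0357) and by DESeq2 (0.0473).

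The 2 astrocytic glutamate carriers went apart. Slc1a3 encodes GLAST, the carrier also known from radial glia (chr15:8634124-8710764, minus strand, protein coding). It was at 1584 and 1575 CPM in parental libraries, 1064 and 1059 CPM in clone 1, and 1072 and 1084 CPM in clone 2. All 4 labelled knockout libraries lay close together and below both parental ones. The log2 fold change was -0.53 (SE 0.09, adjusted p = 0.0107), and the call was lost without parental library 1 (adjusted p = 0.225) or 2 (0.209). The clones differed by 0.02 (SE 0.04, adjusted p = 0.711).

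Slc1a2 encodes GLT-1, the chief glutamate carrier of mature astrocytes (chr2:102658659-102790784, plus strand, protein coding). Parental libraries had 1059 and 1049 CPM, clone 1 had 1148 and 1079, and clone 2 had 1588 and 1546. Clone 2 stood above the other 4 libraries, and clone 1 was barely above parental. With the clones as replicates the log2 fold change was 0.38 (SE 0.18, adjusted p = 0.179), which did not pass. Clone 2 rose by 0.57 against parental (SE 0.04, adjusted p = 5.91e-09), while clone 1 differed by 0.08 (SE 0.04, adjusted p = 0.131). Without library 2 of clone 1 the latter was 0.14 and passed (adjusted p = 0.00201), as it did with no filter (0.00453). The direct test of clone 2 against clone 1 gave 0.49 (SE 0.04, adjusted p = 1.75e-07).

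Within a library, the ratio of Slc1a2 to Slc1a3 per kb was 0.435 and 0.433 in parental cells. It was 0.701 and 0.662 in clone 1 and 0.963 and 0.927 in clone 2, above parental in all 4 libraries, and higher in clone 2 than in clone 1. The summed level of both carriers was 2634 ± 12.9 CPM (SD, n = 2) in parental cells, 2175 ± 52.4 in clone 1 and 2645 ± 22.5 in clone 2. The sum was thus lower in clone 1 only, and in clone 2 it lay within the spread of the libraries around the parental level; this sum was not tested.

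**Figure D2:**
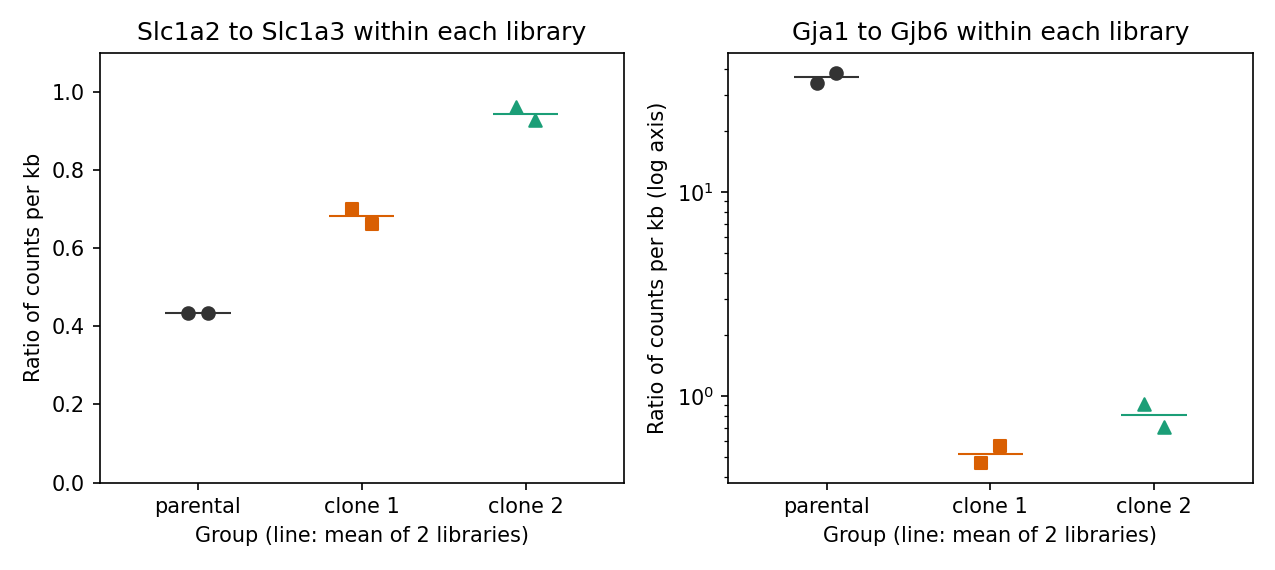
Ratio of counts per kb of exon within each library, Slc1a2 to Slc1a3 on a linear axis from 0 (left) and Gja1 to Gjb6 on a log axis (right), by group, with a line at the mean of 2 libraries. The left ratio climbs from about 0.43 in parental cells to 0.93 or more in clone 2, and the right one drops from above 34 to below 1 in all labelled knockout libraries.

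Slc4a4 encodes NBCe1, a carrier of sodium and bicarbonate (chr5:88886818-89239653, plus strand, protein coding). It was at 806 and 813 CPM in parental libraries, 299.99 and 284 CPM in clone 1, and 395 and 390 CPM in clone 2. The 3 groups did not overlap, with clone 1 lowest. The fall was 2.31-fold (log2 fold change -1.21, SE 0.16, adjusted p = 0.0057). The difference of clone 2 from clone 1 was 0.42 (SE 0.04, adjusted p = 7.2e-07).

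Glul encodes glutamine synthetase, which makes glutamine from the glutamate that astrocytes take up (chr1:153899944-153909723, plus strand, protein coding). Its levels were 210.3 and 216 CPM in parental cells, 233 and 254 in clone 1, and 225 and 246 in clone 2. All 4 labelled knockout libraries were above both parental ones, but the libraries of a clone differed by about as much as the groups did. The log2 fold change was 0.20 (SE 0.08, adjusted p = 0.135), which did not pass. In the fit of single libraries clone 1 was higher by 0.19 (SE 0.05, adjusted p = 0.00474) and clone 2 by 0.14 (SE 0.05, adjusted p = 0.0291). The call in clone 2 was lost with DESeq2 size factors (adjusted p = 0.0583), among genes of at least 5 CPM (0.0713), by DESeq2's own test (0.105), without parental library 1 (0.164) or 2 (0.0801) and without library 2 of clone 2 (0.154), and that in clone 1 without parental library 1 (0.0913).

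Aldh1l1 encodes a dehydrogenase of the folate cycle, much used as an astrocyte marker (chr6:90486427-90600203, plus strand, protein coding). It was at 18.4 and 17.5 CPM in parental libraries, 3.1 and 4.43 CPM in clone 1, and 10.3 and 9.51 CPM in clone 2. No library of a clone reached the parental level, but the clones stood apart. Its log2 fold change against parental was -2.25 in clone 1 (SE 0.13, adjusted p = 1.96e-10), with 21% left, and -0.86 in clone 2 (SE 0.12, adjusted p = 9.6e-06), with 55.3% left. Clone 2 had 2.63 times the level of clone 1 (log2 SE 0.13, adjusted p = 4.8e-07). With the clones as replicates the log2 fold change of -1.35 had an SE of 0.47 and did not pass (adjusted p = 0.0971), although DESeq2 called it (0.00334). An annotated antisense gene overlaps 11% of its exon bases, but had at most 3 counts in any library.

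Agt encodes angiotensinogen, the precursor of angiotensins, which brain astrocytes secrete (chr8:124556534-124569706, minus strand, protein coding). It was at 1192 and 1193 CPM in parental cells, 132 and 137 in clone 1, and 170.1 and 175 in clone 2. Clone 1 was lowest, and the 3 groups did not overlap. The fall was 7.59-fold (log2 fold change -2.92, SE 0.15, adjusted p = 0.000375). Clone 2 was above clone 1 by 0.36 (SE 0.04, adjusted p = 4.72e-06).

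S100b encodes a calcium-binding protein found in astrocytes and also in cells of the oligodendrocyte lineage (chr10:76253853-76261159, plus strand, protein coding). Its levels were 54.8 and 50.1 CPM in parental libraries, 68.3 and 72.7 CPM in clone 1, and 91.0 and 89.2 CPM in clone 2. The order was parental, clone 1, clone 2, without overlap. It rose 1.57-fold (log2 fold change 0.65, SE 0.15, adjusted p = 0.0293), and clone 2 exceeded clone 1 by 0.35 (SE 0.05, adjusted p = 6.37e-05). The rise with the clones as replicates missed the threshold without parental library 1 (adjusted p = 0.128) or 2 (0.212), without library 2 of clone 1 (0.0552), and among genes of at least 5 CPM (0.0519). Summed oligodendrocyte lineage markers, given above, were also higher in both clones; their part in this rise was not tested.

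Each clone compared alone with the parental libraries gave 7 members lower and 2 higher in clone 1 (54.5% of 23400 genes tested were called in either direction) and 7 lower and 3 higher in clone 2 (53.5%). These counts lie against a high background, and both comparisons share the parental libraries. The 7 lower were Gja1, Gjb6, Aqp4, Aldh1l1, Agt, Slc4a4 and Slc1a3 in each. The fall was larger in clone 1 for all 7 by value. Between the clones, 6 members were higher in clone 2 and 0 lower (36.4% of genes tested were called, 16.1% higher and 20.3% lower): Gja1, Slc1a2, Aldh1l1, S100b, Agt and Slc4a4. Gjb6, Aqp4, Slc1a3 and Glul did not pass in that comparison.

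**Figure D3:**
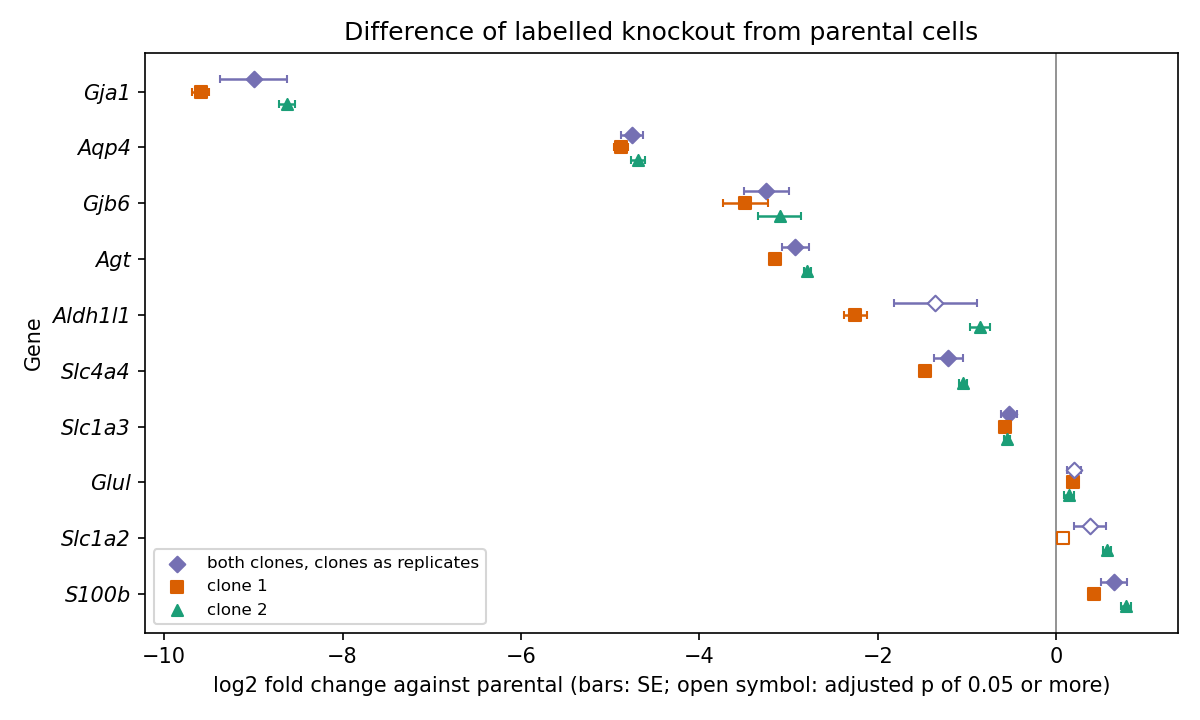
Log2 fold change against parental cells with its SE, for both clones as replicates (diamonds), clone 1 (squares) and clone 2 (triangles); open symbols have an adjusted p of 0.05 or more. Gja1 lies near -9, Aqp4 near -4.8, and Slc1a2, Glul and S100b to the right of 0, with the clones farthest apart for Aldh1l1.

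Per length, the order of the 10 genes changed. In parental cells the CPM per kb of merged exon was highest for Agt, at 631 ± 0.181 (SD, n = 2), followed by Slc1a3 (185 ± 0.707), Aqp4 (119 ± 0.62), Slc1a2 (80.3 ± 0.525), Slc4a4 (74.9 ± 0.468), Glul (64.1 ± 1.23), Gja1 (42.1 ± 0.472), S100b (35.3 ± 2.24), Aldh1l1 (3.98 ± 0.139) and Gjb6 (1.16 ± 0.107). No neighbours in that order overlapped between their 2 libraries. In clone 1 Slc1a3 led at 124 ± 0.432, then came Slc1a2 at 84.8 ± 3.71, while Glul (73.3 ± 4.52) and Agt (71.1 ± 2.15) overlapped. In clone 2 Slc1a3 (126 ± 0.92) and Slc1a2 (119 ± 2.31) were followed by Agt at 91.3 ± 1.92 and Glul at 70.8 ± 4.59. Gja1 was last in both clones by value, at 0.0542 ± 0.0198 and 0.107 ± 0.00545, next to Gjb6 at 0.103 ± 0.0243 and 0.135 ± 0.0317, both on few counts. Agt made up 51% of the summed level per kb of the 10 genes in parental cells, 16.4% in clone 1 and 17.8% in clone 2. The carriers Slc1a2 and Slc1a3 together made up 21.5%, 48.3% and 48%. Raw counts of the 10 genes were 0.61% to 0.613% of a parental library, 0.288% to 0.292% of a clone 1 library and 0.361% to 0.363% of a clone 2 library.

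Among genes of at least 5 CPM on average, the profile over the 6 libraries nearest to that of Gja1 (Euclidean distance of centred log2 CPM) was that of Ripply1, at 0.24, and Met, also among the 3 nearest, was at 1.29. Nearest to Aqp4 were Plec (0.23), Socs3 (0.34) and Igf2r (0.40). Among the 3 nearest to Gjb6 were Gadd45g (0.30) and Cebpd (0.44), and to Agt Spsb1 (0.21) and Niban2 (0.22). These distances describe 6 libraries in 3 groups. With genes of at least 1 CPM, Ifi203 replaced Igf2r for Aqp4, and Tec was among the 3 nearest to Gjb6.

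Counts for the related lists below lie against 26.7% of all genes tested that passed, 13.6% lower and 13% higher. The other channel genes were lower where they passed, with 1 exception. Of 21 other connexin and pannexin genes, 12 were tested, 4 fell and 1 rose (41.7% called, median log2 fold change -0.25). The log2 fold change of Gjb2 (connexin 26) was -5.99 (SE 0.30), from 4.77 CPM in parental cells to 0.0901 in clone 1 and 0.0557 in clone 2, and that of Panx2 was -4.90 (SE 0.23). It was -2.14 (SE 0.17) for Gjd2. Panx1 rose by 0.93 (SE 0.10, adjusted p = 0.00272), a call lost without parental library 2 (0.0575). Gjc3, a connexin gene of oligodendrocytes, did not pass and was at 248 CPM in parental cells, 443 in clone 1 and 69.2 in clone 2; against parental it was higher in clone 1 (log2 fold change 0.84, SE 0.06) and lower in clone 2 (-1.84, SE 0.06), both called, and the 2 clones together gave no steady sign. Of 11 other aquaporin genes, 7 were tested and 4 fell (57.1% called, median -1.97): Aqp1 by 3.74 (SE 0.19), from 13.1 to 1.06 and 0.854 CPM, Aqp9 by 2.07 (SE 0.32), and Aqp12 and Aqp5, both below 0.4 CPM. Without either parental library 2 fell, since Aqp12 and Aqp5 missed the threshold, as Aqp5 also did without library 1 of clone 1 (adjusted p = 0.0628) and by DESeq2 (0.0751).

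Most genes listed with the anchoring of Aqp4 at the endfoot were lower, by smaller steps than Aqp4. Of the 12 genes, 8 fell and 2 rose (83.3% called, median -0.78). Agrn rose by 0.75 (SE 0.10) and Dmd by 0.47 (SE 0.09) on the log2 scale, and Dag1 (0.21) and Sntb2 (-0.15) did not pass. Kcnj10, the potassium channel Kir4.1, fell by 2.44 on the log2 scale (SE 0.21), from 34.5 to 7.45 and 5.004 CPM. Utrn fell by 0.73 (SE 0.08) and Hepacam, which encodes GlialCAM, by 0.84 (SE 0.10). The counts were smaller when a parental library was left out: 3 fell without library 1 and 2 without library 2, and 0 rose without either. Utrn then missed the threshold (adjusted p = 0.0694 and 0.0687), and Hepacam without parental library 2 (0.0547).

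Genes around the glutamate and glutamine cycle moved both ways. Of 7 other genes of the Slc1 family and of cystine exchange, 2 fell and 0 rose (median -0.33). That is 28.6% called, near the 26.7% of all genes tested. Slc1a1, a glutamate carrier of neurons, fell by 2.66 on the log2 scale (SE 0.23, with adjusted p = 0.00143) and Slc7a11, the cystine-glutamate exchanger, by 2.25 (SE 0.32, adjusted p = 0.00909). Slc7a11 missed the threshold without either parental library (0.0693 and 0.0669), which left 1. Slc1a4 and Slc1a7 had log2 fold changes of 0.37 and -1.36 and did not pass. Of 15 genes of glutamate and glutamine metabolism, 13 were tested, 8 rose and 2 fell (76.9% called, median 0.66). Slc38a3, the carrier SNAT3 through which astrocytes release glutamine, was at 153 CPM in parental cells against 624 and 661 in the clones, a log2 fold change of 2.10 (SE 0.09, adjusted p = 0.000272). Slc38a1, a glutamine carrier of neurons, fell by 1.55 (SE 0.12), from 2026 to 621 and 729 CPM. The transaminase genes Got1 and Gpt2 rose by 1.54 (SE 0.13) and 0.99 (SE 0.11). Without either parental library 4 rose and 1 fell.

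Of 14 other bicarbonate and pH genes, 13 were tested, 3 fell and 0 rose (median -0.43). That is 23.1% called, below the 26.7% of all genes tested. Slc26a6 fell by 1.72 (SE 0.15, adjusted p = 0.00151), Slc4a8 by 1.25 (SE 0.25) and Slc4a1, at 0.29 CPM or less, by 2.20 (SE 0.49). Slc4a8 (adjusted p = 0.0606 and 0.0728) and Slc4a1 missed the threshold without either parental library, which left 1, and Slc4a1 also without library 2 of clone 1 (0.058) or library 1 of clone 2 (0.0786); without library 1 of clone 1 the count was 5, and without library 2 of clone 2 there was 1 that rose. Car2, a carbonic anhydrase gene, had a log2 fold change of 0.35 and did not pass. Of 11 genes of potassium, the sodium pump and cell volume, 5 fell and 4 rose (81.8% called, median -0.97). Besides Kcnj10, Lrrc8a, a subunit of volume-regulated anion channels, fell by 0.97 (SE 0.08), and Kcnk1 by 3.25 (SE 0.31). The channel gene Kcnk2 went from 9.55 to 0.517 and 0.201 CPM, a log2 fold change of -4.70 (SE 0.44). Without either parental library 1 rose, and without library 2 of clone 1 it was 2.

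Of 17 other aldehyde dehydrogenase and folate genes, 16 were tested, 6 rose and 2 fell (50% called, median 0.45). The mitochondrial folate genes Mthfd1l and Mthfd2 rose by 2.18 (SE 0.13) and 2.43 (SE 0.35), and Shmt1 rose by 1.92 (SE 0.12). Without parental library 2 the count that rose was 3 and Mthfd2 missed the threshold (adjusted p = 0.0512), without either parental library 0 fell, and without library 1 of clone 1 the count that fell was 4. Of 15 other genes with an S100 symbol, 9 were tested, 4 fell and 0 rose (44.4% called, median -2.06). S100a10 fell by 2.06 (SE 0.09), from 102 to 24.9 and 23.1 CPM. The log2 fold change was -5.70 for S100a11 (SE 0.48), -5.27 for S100a13 (SE 0.47) and -4.61 for S100a3 (SE 0.58), the last at 0.602 CPM in parental cells. The 5 that did not pass were S100a1 (-2.56), S100a16 (-1.41), S100a6 (-0.99), S100g (-0.03) and S100pbp (0.16).

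Other genes of the renin-angiotensin system were mostly low. Of 14 found, 11 were tested, 2 fell and 2 rose (median -0.13). That is 36.4% called, against 26.7% of all genes tested. Serpina3n, a serpin gene kept in the list, fell by 2.42 (SE 0.11, adjusted p = 0.000272) and Mas1, which encodes a receptor for angiotensin fragments, by 1.62 (SE 0.33), from 1.27 CPM. The peptidase gene Enpep rose by 2.50 (SE 0.52), from 0.23 to 1.41 and 1.19 CPM, and the receptor gene Agtr2 also rose, from 0.0156 to 0.349 and 0.197 CPM. Mas1 and Agtr2 missed the threshold without parental library 2 (adjusted p = 0.0955 and 0.0812), and without library 2 of clone 2 the count that rose was 1. Of 26 other astrocyte identity genes, 13 fell and 3 rose (61.5% called, median -0.58). Cbs, cystathionine beta-synthase, fell by 5.83 (SE 0.21), Slc14a1, a urea carrier, by 7.46 (SE 0.31) and Apoe, the main brain lipoprotein, by 3.39 (SE 0.13), while Acsbg1, an acyl-CoA synthetase gene of astrocytes, rose by 2.20 (SE 0.13), from 84.6 to 343 and 416 CPM. Gfap, the intermediate filament gene by which astrocytes are most often recognized, fell from 2691 ± 39.9 CPM (SD, n = 2) to 1.59 ± 0.0858 in clone 1 and 9.70 ± 0.296 in clone 2 (log2 fold change -8.86, SE 1.17, edgeR adjusted p = 0.0121). Its call was lost without parental library 1 (adjusted p = 0.349) or 2 (0.352), with no filter (0.105) and with the replicate block (0.201). Without either parental library 1 rose.

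**Figure D4:**
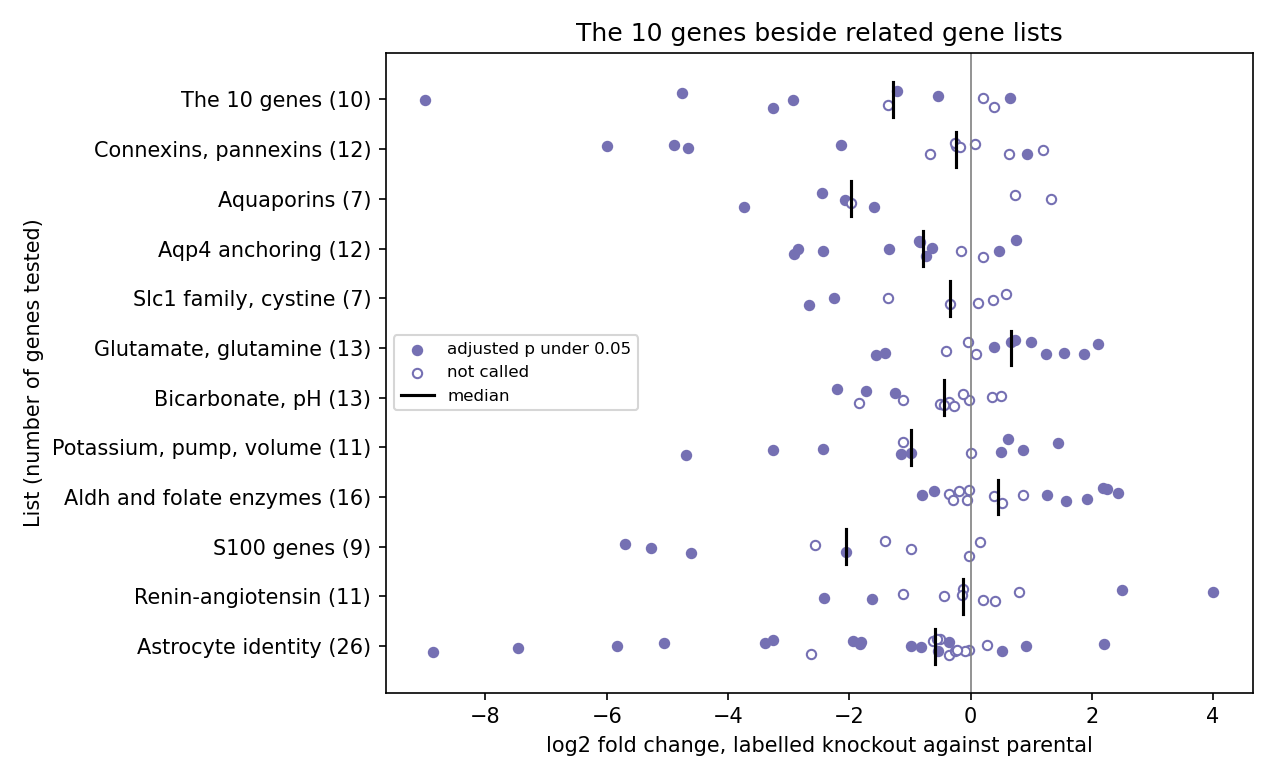
Log2 fold change of labelled knockout against parental cells for the 10 genes (top) and 11 related lists, with 1 point per tested gene, filled where the adjusted p is under 0.05, and a bar at the list's median. The median lies below 0 for the 10 genes and for all lists but those of glutamate and glutamine metabolism (0.66) and of aldehyde dehydrogenase and folate enzymes (0.45).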

How the data were processed

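RNA of 6 libraries was sequenced. The submitters' processing notes name STAR, featureCounts, GRCm38.p6 and mm10, without versions. The deposited table holds whole-number counts per gene, made by the authors and not normalized. How strand and multi-mapping reads were treated is not stated there. Columns were matched to samples by name and groups taken from titles.

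The tests used edgeR 4.0.16 in R 4.3.3 (filterByExpr with a minimum count of 10, TMM, robust quasi-likelihood test, Benjamini-Hochberg threshold of 0.05). For labelled knockout against parental, libraries of each clone were summed, giving 2 clones and 2 parental libraries. Single clones were contrasts of a fit of 6 libraries in 3 groups. The SE is the size of the log2 fold change divided by the square root of F. Centred log2 CPM used a prior count of 2. Exon lengths and coordinates came from GENCODE M21 (GRCm38), which held 41869 of 42365 IDs, 41112 with the same version; promoters came from RefSeq (GRCm38.p6). Fits were tested on simulated data. Alternatives were other scalings, other filters, DESeq2 1.42.0, a replicate block, libraries as replicates, and leaving out each library or clone.

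The members and lists were chosen with earlier results of these data known. All 10 members are named; of each list, the 4 genes with the smallest adjusted p, and all called where 5 or fewer were. Gjc3, Gfap, Agrn, Dmd, Dag1, Sntb2 and the S100 genes that were not called were named after their values were seen. Nearest genes were taken for the 4 called members with the largest change. Some genes that this rule selects are not reported here.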

Additional observations from a re-analysis of the deposited data

Results flagged for a closer look

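Clone 2 differed from clone 1 in the fit of 6 libraries (edgeR, adjusted over 23400 genes) for 6 of the 10 genes, where 36.4% of all genes tested were called, 16.1% higher. The contrast sets 1 clone against 1 clone, with 2 libraries each, and shows a difference between these clones. The log2 difference was 1.40 for Aldh1l1, 0.97 for Gja1, 0.49 for Slc1a2, 0.42 for Slc4a4, 0.36 for Agt and 0.35 for S100b, all higher in clone 2 in both libraries.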

How the results depend on the processing

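Of 536 values of the 10 genes under alternatives, 503 kept their direction and their side of the threshold, 14 fell short of it, 17 newly passed and 2 changed sign (counts over the 4 comparisons). Gja1, Gjb6, Aqp4, Agt and Slc4a4 stayed lower and called in labelled knockout against parental under every alternative that tested them (Gjb6 was not tested among genes of at least 5 CPM). The sign changed for Glul in clone 2 against clone 1 without library 2 of clone 1 (0.0095) or without library 1 of clone 2 (0.037; -0.098 to 0.037 over all libraries left out); neither passed. Gjc3, at 0.068 in labelled knockout against parental, changed sign with upper quartile scaling (-0.0087), the replicate block (-0.47), libraries as replicates (-0.50), and without library 1 of clone 1 (-0.048) or clone 1 (-1.82), over a range of -1.82 to 0.86 (-0.048 to 0.14 for single libraries). The 6532 genes called in labelled knockout against parental became 3788 among genes of at least 5 CPM, where fewer genes are tested, 13213 with libraries as replicates, 2529 to 6714 when a library was left out (2544 and 2529 without parental libraries 1 and 2), and 13475 and 13495 without clones 1 and 2; the cause was not tested. With 1 clone left, or 1 parental library, the lone sample is assumed to vary like the rest. Libraries as replicates gave 7 of the 10 genes lower and 3 higher. Among genes of at least 5 CPM the single clones had 8014 and 7845 calls against 12752 and 12520. Of 626 values of 44 genes of the related lists, 21 fell short and 9 newly passed; of 330 counts for the lists, 68 moved by over 1.5 times. Other scalings moved a level by at most 1.02 times. With the replicate block, 6843 genes were called in labelled knockout against parental, and 12659, 12412 and 8449 in the 3-group fit, where Aqp4 then passed between the clones (adjusted p = 0.0341). Numbers shared by libraries showed no steady pairing: differences of library 1 from 2 correlated across genes at -0.11 for parental and clone 1, 0.0021 for parental and clone 2, 0.117 for the clones, and 0.0066 for clone numbers. With the numbers of clone 1 crossed, tried after seeing these values, 12256, 12098 and 7926 were called. Depth limits Gjb6 and Gja1 in the clones, at 15 to 70 counts.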
